A study of Mus musculus with 2 samples.

Results

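The Mir532-Mir188 cluster is a row of 5 hairpin genes, Mir532, Mir188, Mir362, Mir501 and Mir500, inside a single intron of Clcn5 on the X chromosome. The members were listed by symbol and found through their Ensembl identifiers in GENCODE M21. All 5 were counted, out of 1973 genes in the files. Small RNA had been sequenced from the forebrain of B6NCrl mouse embryos at 10.5 days of development, a stage at which the forebrain wall is made mostly of dividing neuroepithelial cells. The samples form 1 group of 2 libraries, replicate 1 from a pool of 69 embryos and replicate 2 from a pool of 51. Both pools were healthy embryos of mixed sex, and each is labelled as a biological replicate from a biosample of its own. There is no second condition, so the comparisons are between hairpins and between these pools.

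Clcn5 encodes ClC-5, a chloride/proton exchanger of endosomes known mainly from the kidney tubule. An intronic miRNA is cut as a hairpin from the host's primary transcript by Drosha and trimmed by Dicer to a short duplex, whose 5p or 3p strand is loaded into an Argonaute protein. The loaded strand finds its targets mostly through the seed, which is bases 2 to 8. Hairpins of 1 host can share a primary transcript, while cutting, strand choice and decay can act on each hairpin by itself. Whether the Clcn5 hairpins come from a shared transcript was not tested.

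The counted level of a hairpin gene pools its 5p and 3p strands, so the sequences show what each count can hold. RefSeq (GRCm38.p6) gave hairpins for all 5 members and 9 mature sequences, printed 5′ to 3′ with the seed in capitals and in the order of transcription. Mir532 also yields miR-532-5p, which had no entry there, so its length, seed and matches were not examined.
miR-532-3p: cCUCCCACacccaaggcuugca
miR-188-5p: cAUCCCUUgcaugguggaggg
miR-188-3p: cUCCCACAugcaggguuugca
miR-362-5p: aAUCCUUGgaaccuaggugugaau
miR-362-3p: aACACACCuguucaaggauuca
miR-501-5p: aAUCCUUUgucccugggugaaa
miR-501-3p: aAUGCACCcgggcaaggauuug
miR-500-5p: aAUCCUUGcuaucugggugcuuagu
miR-500-3p: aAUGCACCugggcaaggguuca

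These 9 strands carried 7 different seeds. The seed AUCCUUG was common to miR-362-5p and miR-500-5p, and AUGCACC to miR-501-3p and miR-500-3p. No strand outside the cluster in the RefSeq table of 1679 mature sequences had either seed. Outside the cluster, miR-7061-3p had the seed of miR-188-5p, and miR-329-3p had that of miR-362-3p. The seed of miR-501-5p, AUCCUUU, belonged to no other strand of the table. Since the counts do not separate the strands, the reads of a shared seed could not be summed.

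Mir501 and Mir500 had the longest run of bases in common, and their full hairpins are shown because their levels lay far apart. Capitals mark both mature strands.
Mir501: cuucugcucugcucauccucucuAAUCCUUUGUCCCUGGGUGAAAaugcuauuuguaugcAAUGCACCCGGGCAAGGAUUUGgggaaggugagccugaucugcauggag
Mir500: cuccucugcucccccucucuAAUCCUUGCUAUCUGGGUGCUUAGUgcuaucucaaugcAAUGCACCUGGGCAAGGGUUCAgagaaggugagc

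The longest run of bases common to these hairpins was 14, the longest of any 2 members. Their 3p strands matched at 18 of 22 bases, and from miR-500-3p to miR-501-3p the changes were U9C, G18A, C21U and A22G, counted from the 5′ end. Their 5p strands matched at 15 of 22 bases, fewer than the 16 of 22 of miR-362-5p and miR-501-5p. The deposited counts leave out reads that map to more than 1 place. None of the 9 mature sequences was found whole in another of the 1005 hairpins of the table. Matches elsewhere in the genome were not searched.

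The hairpins lie on the minus strand between 7237683 and 7248497 of chromosome X in mm10, a span of 10815 bases. Mir532 (ENSMUSG00000070139.1) is at 7248402 to 7248497 and Mir188 (ENSMUSG00000065398.1) follows 345 bases downstream at 7247989 to 7248056. After a gap of 5942 bases comes Mir362 (ENSMUSG00000070100.1) at 7241982 to 7242046. Mir501 (ENSMUSG00000076251.1) is 630 bases further on, at 7241243 to 7241351, and Mir500 (ENSMUSG00000070108.2) another 3468 bases on, at 7237683 to 7237774. The hairpins thus form 2 close pairs and a lone member in 1 intron of 103648 bases, which runs from 7213011 to 7316658. None of them overlaps an exon of Clcn5, whose gene spans 7153810 to 7319358. Of the 5 annotated Clcn5 transcripts, 3 begin upstream of the cluster and contain all of it. The remaining transcripts begin downstream and contain no hairpin. No other counted gene lies inside Clcn5.

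**Figure D1:**
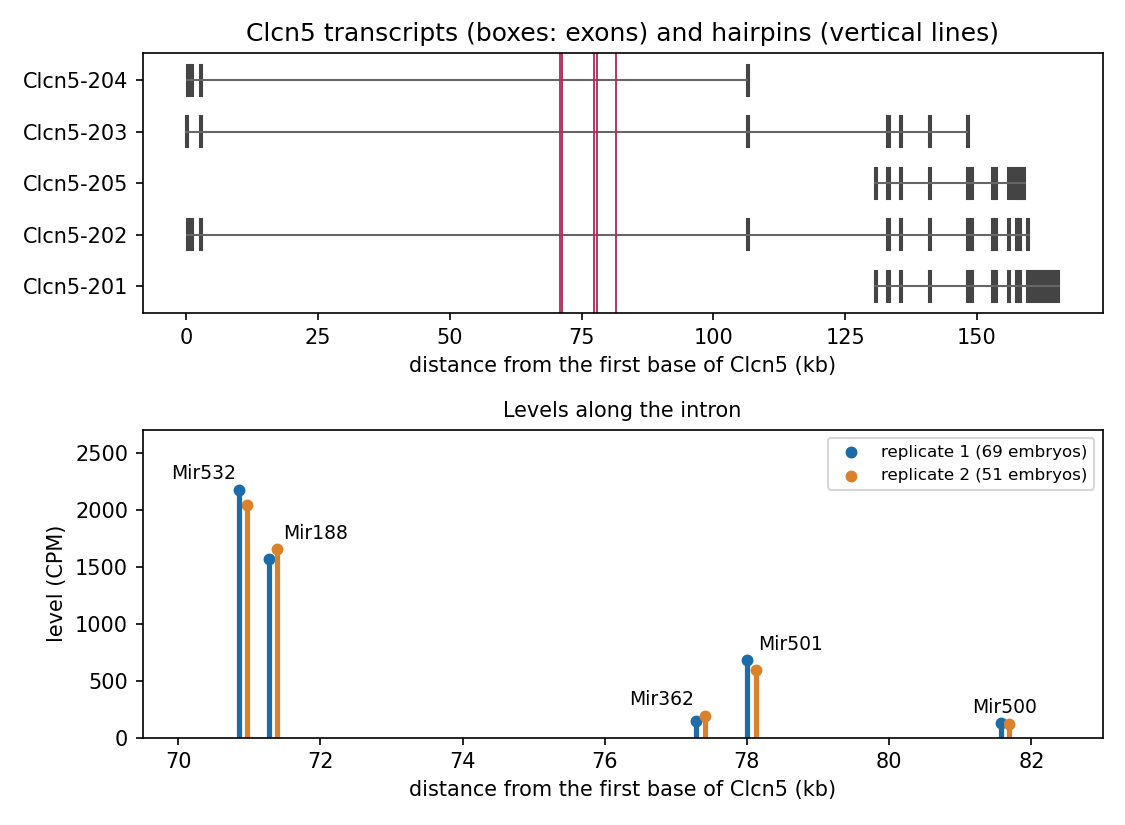
Top, the 5 Clcn5 transcripts (lines, with exons as boxes and short exons widened to be visible) against distance in kb from the first base of the gene, with vertical lines at the hairpins. Bottom, the level of each hairpin in CPM (counts of the gene per 1000000 gene counts of the library) in both libraries along the same distance, with the libraries drawn slightly apart; Mir532 and Mir188 stand high at about 71 kb and the other hairpins, from about 77 kb on, reach at most 677 CPM.

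Replicate 1 had 3256070 counts on the strand of a gene out of 8559330 reads, and replicate 2 had 3574530 out of 9664755. Levels are CPM of these gene counts. A count of 0 would allow up to 3 counts, or 0.921 CPM in the first library and 0.839 CPM in the second. The forebrain label was set beside a few miRNAs with a known place, chosen after their values were seen. How much other tissue the pools held was not measured. Mir92b, a miRNA of neural progenitors, reached 18228 ± 1668 CPM (SD, n = 2), while Mir10b of the Hox clusters, known from hindbrain and trunk, had 92.6 ± 5.5 CPM. MiRNAs known from other tissues were also high. Mir126a of endothelial cells had 29029 and 31930 CPM, more than Mir92b. Mir214 of head mesenchyme had 3840 and 3861 CPM, and Mir205 of epithelia had 2596 and 2604 CPM. These levels thus do not show neuroepithelium alone. Of the red blood cell miRNAs, Mir451a had 601 and 707 CPM, Mir144 had 59.9 and 53.2 CPM and Mir486 had 32.2 and 31.9 CPM.

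All 5 hairpins were well above the floor in both libraries, and every read counted at them was on the strand of Clcn5. Together they held 15289 counts in replicate 1 and 16446 in replicate 2. This is 0.470% of the gene counts in replicate 1 (95% exact interval 0.462 to 0.477) and 0.460% in replicate 2 (0.453 to 0.467), or 4648 ± 67 CPM (SD, n = 2). These Clopper-Pearson intervals cover the counting error of each library alone and no spread between pools. They also treat PCR copies of 1 molecule as separate reads. In tissue of many cell types, fewer cells that make a miRNA and less of it per cell cannot be told apart.

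The levels within the host were far from equal. Mir532 was the highest, with 2176 CPM in replicate 1 and 2041 CPM in replicate 2, a mean of 2108 ± 95 CPM (SD, n = 2). It ranked 77th by mean CPM among all genes counted. Mir188 followed with 1568 and 1650 CPM, a mean of 1609 ± 58 CPM and rank 90. Its 5p strand is known from neurons, where it acts on the semaphorin receptor neuropilin-2.

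The downstream members were lower. Mir501, whose 3p strand is known for acting on the glutamate receptor subunit GluA1 in dendrites, had 677 and 596 CPM, a mean of 636 ± 57 CPM and rank 123. Mir362, studied mostly in tumour cells, had 149 and 192 CPM, a mean of 170 ± 31 CPM and rank 195. Mir500 was the lowest, with 126 and 122 CPM, a mean of 124 ± 3.2 CPM and rank 208. The 401 genes whose mean count was at least 10 had a median of 161 CPM, so Mir362 and Mir500 lay near the middle of these 401 genes and the others above it. In all, 739 genes had a count in either library.

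**Figure D2:**
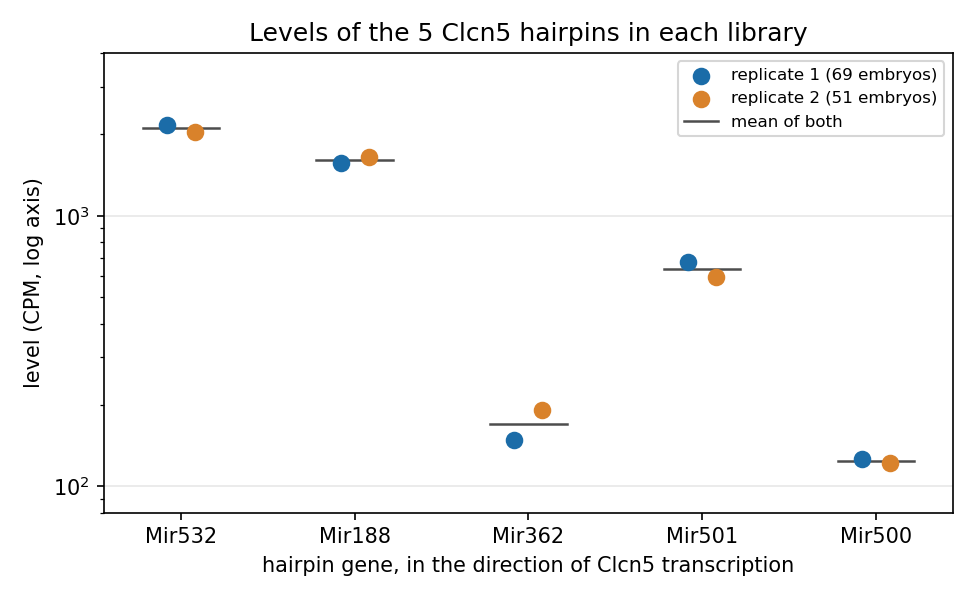
Level of each hairpin in CPM on a log axis, with 1 point per library and a bar at the mean of both. The hairpins stand in the direction of transcription, and Mir362, between Mir188 and Mir501, is lower than both of them; its points, at 149 and 192 CPM, are the farthest apart for their level.

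The order Mir532, Mir188, Mir501, Mir362, Mir500 was the same in both libraries, and none of the 4 neighbouring pairs in it overlapped. The gap between Mir362 and Mir500 was the closest in replicate 1, at 1.18-fold, and was 1.58-fold in replicate 2. Mir532 exceeded Mir188 by 1.39-fold and 1.24-fold. With 2 libraries no permutation test can pass the threshold, so this order rests on the absence of overlap alone. From highest to lowest the hairpins spanned 17.2-fold in replicate 1 and 16.8-fold in replicate 2, or 4.08 ± 0.03 on the log2(CPM + 1) scale (SD, n = 2).

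Counts per base of hairpin change the top of that order. The hairpins are 65 to 109 bases long. Per base, Mir188 had 23.1 and 24.3 CPM and Mir532 had 22.7 and 21.3 CPM, so Mir188 came first, by 1.02-fold in replicate 1 and 1.14-fold in replicate 2. The other members kept their order on this scale, with Mir501 at 5.84, Mir362 at 2.62 and Mir500 at 1.35 CPM per base on average. A library of fragments shorter than 30 bases reads the mature strands, which are 21 to 25 bases long for the 9 strands listed above.

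Levels fell along the intron from Mir532, the first hairpin, to Mir500, the last, except that Mir362 lay below Mir501. Mir532 and Mir188, the upstream pair, were alike within 1.39-fold and together held 79.7% of the cluster's counts in replicate 1 and 80.2% in replicate 2. In the second pair, Mir362 and Mir501, the downstream hairpin was the higher one, by 4.55-fold in replicate 1 and 3.10-fold in replicate 2. Mir501 also exceeded Mir500, the hairpin with which it shared the longest run of bases, by 5.36-fold and 4.89-fold. Near neighbours in the intron were thus similar in one pair and unlike in the other.

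Summed over the cluster, the pools differed little, but single members moved in opposite directions. The cluster's log2 ratio of replicate 1 over replicate 2, after TMM scaling, was −0.0014. Each of the 401 genes was tested for a split of its counts that differs from the split of the scaled library sizes, by a two-sided exact binomial test, which compares these libraries and not conditions. It called 4 of 5 members different, 2 higher and 2 lower in replicate 1, against 43.4% of all genes tested (19.7% higher and 23.7% lower). The median size of the members' log2 ratios was 0.10, and that of all 401 genes was 0.17.

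Mir362 had the widest difference. Its 484 counts in replicate 1 and 687 in replicate 2 gave a log2 ratio of −0.40 (95% exact interval −0.57 to −0.23, adjusted p = 9.2e-06, exact binomial test). In size this ratio ranked 76th of the 401 genes. Of the red blood cell miRNAs, Mir451a was also lower in replicate 1 (log2 ratio −0.26, adjusted p = 5.4e-09, exact binomial test), while Mir144 (0.14) and Mir486 (−0.01) did not pass; the part of blood in the ratio of Mir362 was not tested. Mir501, 630 bases further on, went the other way, with 2204 and 2129 counts and a log2 ratio of 0.15 (0.07 to 0.24, adjusted p = 0.0014, exact binomial test). The ratios of these neighbours were 0.55 apart on the log2 scale. They are the lowest and the highest of the 5 ratios, a pair picked after the values were seen, so their gap is a description with no test.

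The upstream pair differed less. Mir188, with 5106 and 5899 counts, had a log2 ratio of −0.10 (−0.16 to −0.05, adjusted p = 0.00049, exact binomial test). Mir532, with 7084 and 7296 counts, had 0.06 (0.01 to 0.11, adjusted p = 0.027, exact binomial test), and this call was lost when the TMM factors came from all genes (0.04, adjusted p = 0.21, exact binomial test). Mir500, with 411 and 435 counts, had 0.02 (−0.18 to 0.22) and did not pass (adjusted p = 0.94, exact binomial test).

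**Figure D3:**
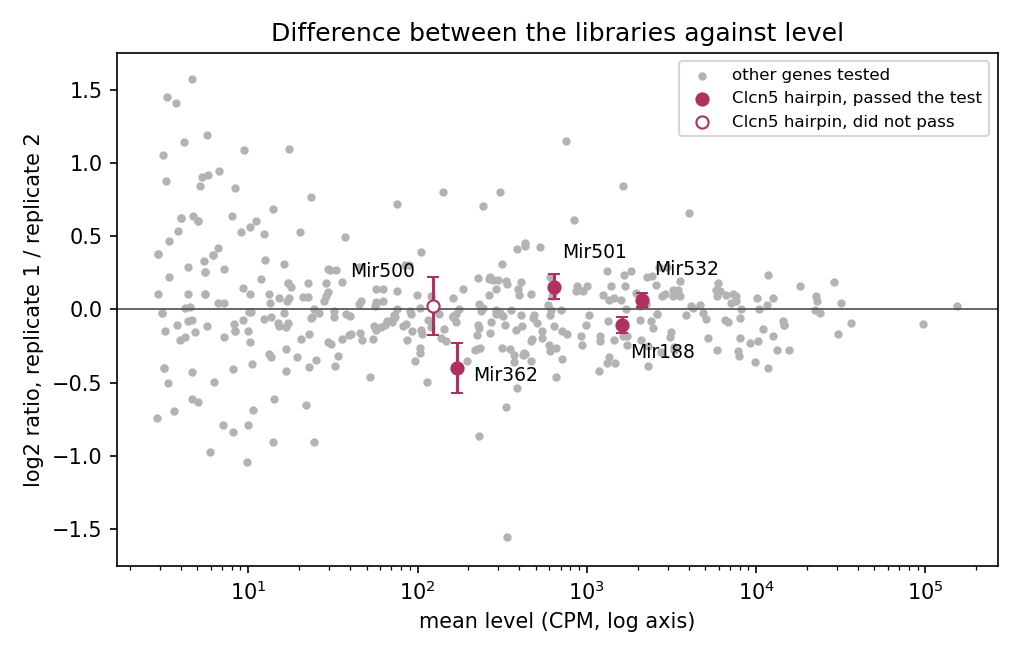
Log2 ratio of replicate 1 over replicate 2 against mean level in CPM (log axis) for the 401 genes tested, with the Clcn5 hairpins in red and their 95% exact intervals as error bars; 3 of the other genes lie beyond the axis. Mir362 sits lowest at −0.40 and Mir501 highest at 0.15, and all 5 lie among the grey points of similar level.

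The make-up of the cluster shows the same shifts without any scaling between libraries. It rests on the same counts as the ratios, so it is no separate evidence for them. Mir362 held 3.17% of the cluster's counts in replicate 1 (95% exact interval 2.89 to 3.46) and 4.18% in replicate 2 (3.88 to 4.49). Mir188 held 33.4% (32.6 to 34.2) and 35.9% (35.1 to 36.6). These members had the larger share in replicate 2, and their intervals did not overlap.

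Mir532 and Mir501 had the larger share in replicate 1. Mir532 held 46.3% (45.5 to 47.1) and 44.4% (43.6 to 45.1), and Mir501 held 14.4% (13.9 to 15.0) and 12.9% (12.4 to 13.5). For Mir500 the shares of 2.69% (2.44 to 2.96) and 2.65% (2.41 to 2.90) overlapped. The intervals, which cover counting error alone, were thus apart for 4 of 5 members, while the order of the shares stayed the same. The shares are parts of 1 total and do not move independently. How often such intervals are apart in other genes was not counted. Spread between further pools was not measured.

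**Figure D4:**
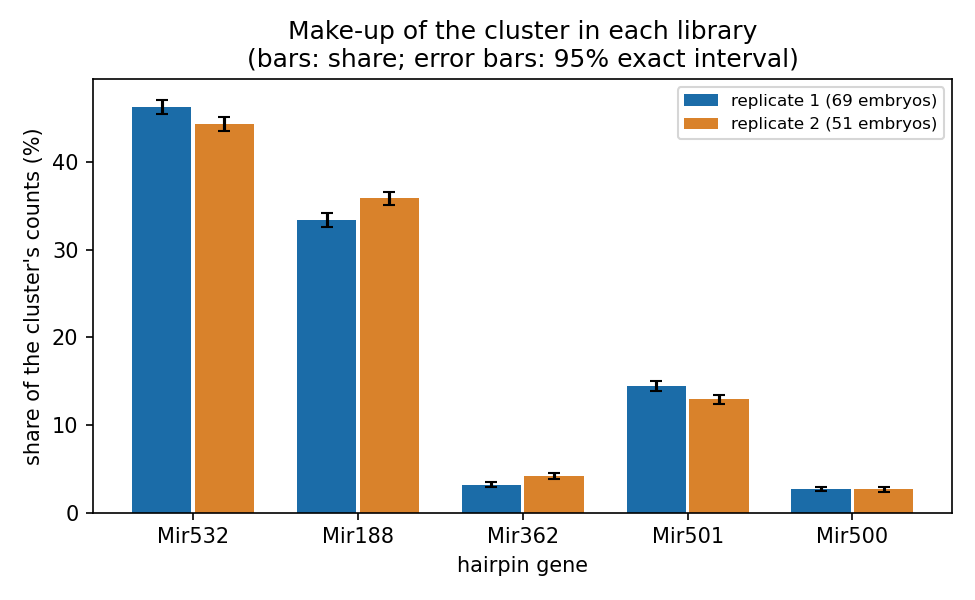
Share of the cluster's counts held by each hairpin, in percent, with 1 bar per library and 95% exact intervals as error bars. Mir532 and Mir188 make up about 80% in both libraries, and the shift of Mir362 from 3.17% to 4.18% is small against the differences between hairpins.

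Unequal levels were also found in other clusters. The Mcm7 hairpins Mir25, Mir93 and Mir106b, known from dividing cells, totalled 38092 ± 134 CPM (SD, n = 2) and spanned 4.11 on the log2(CPM + 1) scale in replicate 1 and 4.04 in replicate 2, against 4.10 and 4.06 in Clcn5. Of the X-linked clusters, Mir322 to Mir450b totalled 18518 ± 550 CPM and spanned 5.85 and 5.96 over the 5 genes found by listed symbol. No gene was counted under the listed symbols Mir450a-1 and Mir450a-2. Mir450-1 (14.4 and 19.0 CPM) and Mir450-2 (3.99 and 7.83 CPM), annotated between Mir542 and Mir450b, were counted but left out of these values. With them the span would be wider, but reads common to both loci are left out, so their levels can be lower limits. The X-linked cluster of Mir106a to Mir363 totalled 30043 ± 1781 CPM and spanned 7.83 and 7.81. Its Mir19b-2 and Mir92-2 share mature sequences with other loci and are counted as lower limits, which can widen the span.

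The Clcn5 hairpins had the lowest total of these clusters, and their log2 ratios ran from −0.40 to 0.15 with calls in both directions. In Mcm7 the ratios ran from −0.08 to −0.0065, with 2 of 3 genes called lower in replicate 1. In the Mir322 cluster they ran from −0.11 to 0.0071, with 1 of 5 called lower. Mir450-1 and Mir450-2, left out of that range, had lower ratios of −0.42 and −0.97 and were not called. In the Mir106a cluster they ran from −0.20 to 0.06, with 4 of 6 called lower. Whether the clusters differ in this respect was not tested.

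**Figure D5:**
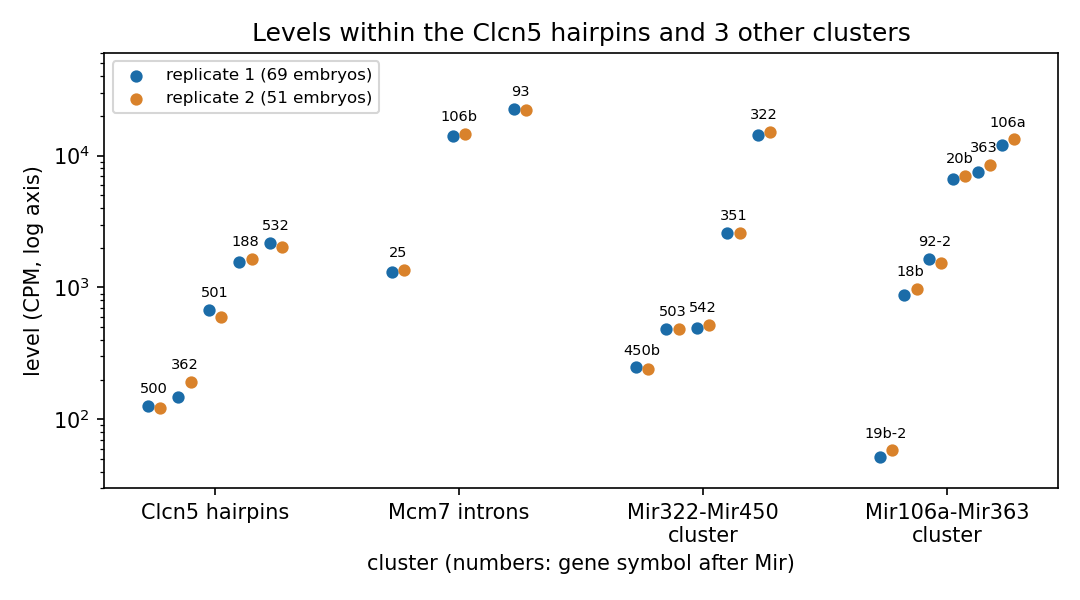
Levels in CPM (log axis) of the Clcn5 hairpins and of 3 other clusters, ordered by mean level within each, with 1 point per library and the gene number above. The Clcn5 hairpins lie between 122 and 2176 CPM, below the highest gene of each other cluster.

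Protein-coding genes that held 3 or more genes with a mean count of 10 on their own strand numbered 4. The mean span of level over the libraries was 9.59 on the log2 scale in Sfmbt2 (13 genes), 4.08 in Clcn5, 4.07 in Mcm7 and 2.96 in Ttll10. The lowest Sfmbt2 gene, Mir467a-1, belongs to a family of similar copies. Reads that map to several places are left out, so its level can be a lower limit, which can widen that span. Clcn5 and Mcm7 changed places between the libraries, with Mcm7 wider in replicate 1 and Clcn5 in replicate 2. Other genes inside a protein-coding gene on its strand, with a mean count of at least 10, numbered 197 and had a median of 40.1 CPM. All Clcn5 hairpins lay above that median.

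The Clcn5 hairpins held 6.67% of all counts from genes of the X chromosome. Among 115 other X-linked genes counted, 35 had a mean count of at least 10, with a median of 281 CPM, and 7 exceeded Mir532. The exact binomial test called 9 of these 35 higher and 7 lower in replicate 1. Their median log2 ratio was −0.03, the same to this precision as that of all 401 genes.

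The genes nearest to each hairpin were found by distance over the log2(CPM + 1) levels of the 2 libraries, so that likeness means a similar level and little more. Mir532 was nearest to Mir22 (distance 0.05, 2063 ± 53 CPM) and Mir181b-2 (0.10). Mir188 was nearest to Mir300 (0.06, 1625 ± 120 CPM) and Mir92-2 (0.12). Mir501 was nearest to Mir16-2 (0.03, 635 ± 43 CPM) and Mir325 (0.06), and Mir500 to Mir27a (0.08, 120 ± 7.1 CPM) and Mir29c (0.09). Mir362 had the most distant neighbours, Mir3102 (0.22, 170 ± 4.5 CPM) and Mir30b (0.26), whose log2 ratios were −0.09 and −0.03 against −0.40 for Mir362. Mir181b-2, Mir92-2 and Mir16-2 have mature sequences made from other loci as well, so their levels are lower limits.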

How the data were processed

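Small RNA reads of 2 forebrain libraries had been counted per gene. The authors deposited raw counts without normalization, on mm10 with gene annotation M4, per the authors' file notes. For the aligner, the counting program and the adapter trimming, nothing was given in the sources used here. Counts on the strand of the gene were used. The 4 tallies of reads given to no gene were left out of library sizes and tests. Of the reads, 30.1% in replicate 1 and 28.8% in replicate 2 were tallied as mapping to several places, 24.6% and 25.4% as unmapped, and 7.28% and 8.82% as outside the listed genes.

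Symbols and coordinates came from GENCODE M21 on the same build, which held 1894 of the 1973 identifiers. CPM used the total of the gene counts. Log2 ratios used a pseudocount of 0.5 counts and TMM factors of edgeR 4.0.16 (R 4.3.3), computed on the 401 genes whose mean count was at least 10. The exact binomial test was adjusted by Benjamini-Hochberg over those genes, with a threshold of 0.05, and was tested on simulated data. It covers counting error only. DESeq2 1.42.0 size factors were an alternative. Other steps used Python 3.11.15 with pandas 2.3.3 and scipy 1.17.1.

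The members and lists were chosen with earlier results of these data known. The named genes are the members, the 2 nearest genes of each by level, and 3 comparison clusters. Mir92b, Mir10b, Mir126a, Mir214, Mir205, Mir451a, Mir144 and Mir486 were named to check the tissue. They and the hosts Sfmbt2 and Ttll10 fall outside this rule and were chosen after their values were seen.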

Additional observations from a re-analysis of the deposited data

How the results depend on the processing

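The cluster's total was 4487 CPM with counts on either strand and 2325 CPM when scaled to all mapped reads, whose total includes reads given to no gene. With either library left out it lay between 4601 and 4696 CPM. The span of the members' levels was 4.13 on the log2 scale per base of hairpin, and 4.06 to 4.10 with either library left out. Between 3 and 4 members were called different between the libraries under the 6 alternatives of that test. TMM factors from all genes, an alternative added after seeing the data, took away the call of Mir532 (log2 ratio 0.04, adjusted p = 0.21, exact binomial test; range of adjusted p over all settings 0.00042 to 0.21) and turned the ratio of Mir500, which was not called, to −0.0013. Mir188, Mir362 and Mir501 kept their direction and call under every alternative, with log2 ratios from −0.13 to −0.07, −0.42 to −0.37 and 0.13 to 0.18. Total-count scaling moved all ratios up by 0.03. Depth limits Mir500 most: its interval of −0.18 to 0.22 holds differences as large as that of Mir501. The 2 pools give no test of the spread between animals.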
